A study of Mus musculus with 12 samples.

Results

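The mitochondrial ribosomal protein genes were taken as all features of the count files with a symbol, alone or as 1 part of a name that joins several symbols, that starts with Mrpl or Mrps followed by a number. This rule found 77 of 19549 features, 48 with a large subunit name (Mrpl) and 29 with a small subunit name (Mrps). Of these, 69 carried a single symbol and 8 were joined names, 5 large and 3 small, which also hold the reads of a neighbouring gene. All of the 77 passed the filter on low counts, which left 10421 of the 19549 features to be tested. The cells were bone marrow-derived macrophages (BMDMs), which are cells grown from marrow in culture into macrophages. The marrow came from naive female FVB mice, and the age of the mice is not given in the sources used here. The cells were polarized for 4 h with IFNG (200 units/mL), the interferon that drives antimicrobial activation, or with IL4 (40 ng/mL), the cytokine that drives alternative activation, and no unpolarized cells were among the samples. About 10% of the polarized cells gave total mRNA, and the lysate of the others was spun through a 5 to 50% sucrose gradient to collect polysome-associated mRNA, defined as messages carrying more than 3 ribosomes. Each of the 4 combinations of cytokine and RNA fraction had 3 libraries (12 libraries). Nothing in the labels tells if replicate libraries come from different mice or cultures, and the p-values then cover only how far these samples differ, which could be technical.

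Mitochondria carry their own ribosomes, which translate the few membrane subunits of the respiratory chain and ATP synthase encoded in mitochondrial DNA. All the proteins of these mitoribosomes are encoded in the nucleus, translated by cytosolic ribosomes and imported, and they assemble on mitochondrial rRNA into a small subunit, which reads the message, and a large subunit, which joins amino acids. Some have bacterial homologues and others are found only in mitochondria. Macrophages polarized with interferon are known to lean on glycolysis, and macrophages polarized with IL4 on oxidative phosphorylation, which depends on the subunits that mitoribosomes make.

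Total counts ran from 2563955 to 22014162 per library, with the 6 polysome libraries below all 6 total mRNA libraries. Lars2, a mitochondrial leucyl-tRNA synthetase gene, took 0.341 to 2.00% of the counts in total mRNA but 1.78 to 29.3% in the IFNG polysome libraries and 5.15 to 18.1% in the IL4 polysome libraries, with the highest share in the third library of each. Results that turn on these libraries are therefore given with and without them. All 9 macrophage markers examined passed the filter, among them Csf1r and Adgre1, and no T or NK cell marker did. Of other cell markers, 3 of 7 neutrophil, 2 of 6 dendritic cell, 2 of 4 stromal and 1 of 4 B cell markers also passed. The 4 IFNG response genes (Irf1, Gbp2, Cxcl9 and Nos2) were all higher with IFNG and the 4 IL4 response genes (Retnla, Arg1, Mrc1 and Chil3) all higher with IL4, in both fractions, and the summed levels of each list did not overlap between the cytokines in any fraction.

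The members lie on 17 chromosomes (GRCm38, the assembly that mm10 stands for). RefSeq promoter windows, 250 bases before to 50 bases after an annotated start, were matched for 68 of the 77 members, and were searched on both strands. The letters CCGGAAGT, which ETS factors such as GABPA bind, were found in 12 of the 68 (17.6%), against 9.78% of the promoters of all tested genes and 4.31% of all promoters. The NRF1 core GCATGCGC was found in 8 (11.8%, against 6.28 and 3.05%), and its longer palindromic form, which contains the core and stands in capitals in Mrpl39 below, in 3 (4.41%, against 2.51 and 1.07%). The YY1 letters, which stand in capitals in Mrps11 below, were found in 5 (7.35%, against 2.64 and 1.00%), but in only 1 of the 68 within the bases before the start. The CREB letters TGACGTCA were found in 2 (2.94%, against 3.74 and 2.03%) and the E-box CACGTG in 5 (7.35%, against 12.2 and 8.09%). Matches of this kind are descriptions and not binding sites. The stretches just before the start are shown for 5 genes, picked by hand from members with widely differing polysome association, with every match to a searched motif in capitals. These bases lie before the annotated start and so are not part of the message that polysomes carry. Mrps24, Mrps11 and Mrps26 were lower on polysomes, and Mrps5 and Mrpl39 were not. The stretch shown is 130 bases long for Mrpl39 and 120 for the others. The stretches are from GRCm38.p6, chr11:5707702-5707821 (minus strand, Mrps24), chr7:78783011-78783130 (plus, Mrps11), chr2:130563637-130563756 (plus, Mrps26), chr2:127587306-127587425 (plus, Mrps5) and chr16:84735245-84735374 (minus, Mrpl39), and read 5′ to 3′ along the gene.
Mrps24: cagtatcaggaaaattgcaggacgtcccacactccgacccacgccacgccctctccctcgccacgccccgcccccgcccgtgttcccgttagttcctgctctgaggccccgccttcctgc
Mrps11: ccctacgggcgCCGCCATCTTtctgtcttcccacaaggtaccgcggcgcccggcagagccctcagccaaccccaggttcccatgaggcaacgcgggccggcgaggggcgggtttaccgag
Mrps26: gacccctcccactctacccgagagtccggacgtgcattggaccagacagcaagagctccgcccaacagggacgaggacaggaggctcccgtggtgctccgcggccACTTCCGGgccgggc
Mrps5: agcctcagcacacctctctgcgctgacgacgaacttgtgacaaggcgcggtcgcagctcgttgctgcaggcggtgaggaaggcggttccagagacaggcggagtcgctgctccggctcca
Mrpl39: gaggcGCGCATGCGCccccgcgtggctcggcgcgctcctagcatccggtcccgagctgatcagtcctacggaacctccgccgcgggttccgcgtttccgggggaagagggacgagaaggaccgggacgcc
Mrps11 holds the YY1 letters and Mrps26 the ETS letters, each on the minus strand relative to the gene, Mrpl39 holds the palindromic NRF1 letters, and the stretches of Mrps24 and Mrps5 hold none of the letters searched.

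Messages of the mitoribosome took a smaller part of the polysome libraries than of total mRNA in both polarizations. Summed over the 77 members, the level in CPM (counts scaled to a common library size, here by TMM) with IFNG was 8447, 6481 and 5759 in total mRNA and 2965, 2214 and 1714 on polysomes. With IL4 it was 8080, 8020 and 6301 in total mRNA and 3006, 3802 and 3806 on polysomes. Every polysome library was below every total mRNA library, while the 2 cytokines overlapped in total mRNA. On polysomes the highest IFNG library (2965 CPM) was just below the lowest IL4 library (3006 CPM), and for the large subunit alone these 2 libraries were level (2119 CPM each). The large subunit sum was 4828 ± 959 CPM in IFNG total, 4942 ± 705 in IL4 total, 1694 ± 403 in IFNG polysome and 2431 ± 271 in IL4 polysome (mean ± SD, n = 3 each). The small subunit sum was 2067 ± 448, 2525 ± 308, 604 ± 226 and 1107 ± 190 CPM in the same order. On unscaled library totals the 77 members together came to 5677 ± 359 CPM in IFNG total and 7784 ± 342 in IL4 total (SD, n = 3 each), which did not overlap on that scale. On polysomes the unscaled sums did overlap, at 3829, 2151 and 1455 CPM with IFNG and 3978, 4188 and 3664 with IL4. The members' share of all counts fell to its lowest, 0.146%, in the IFNG polysome library in which Lars2 took 29.3%.

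**Figure D1:**
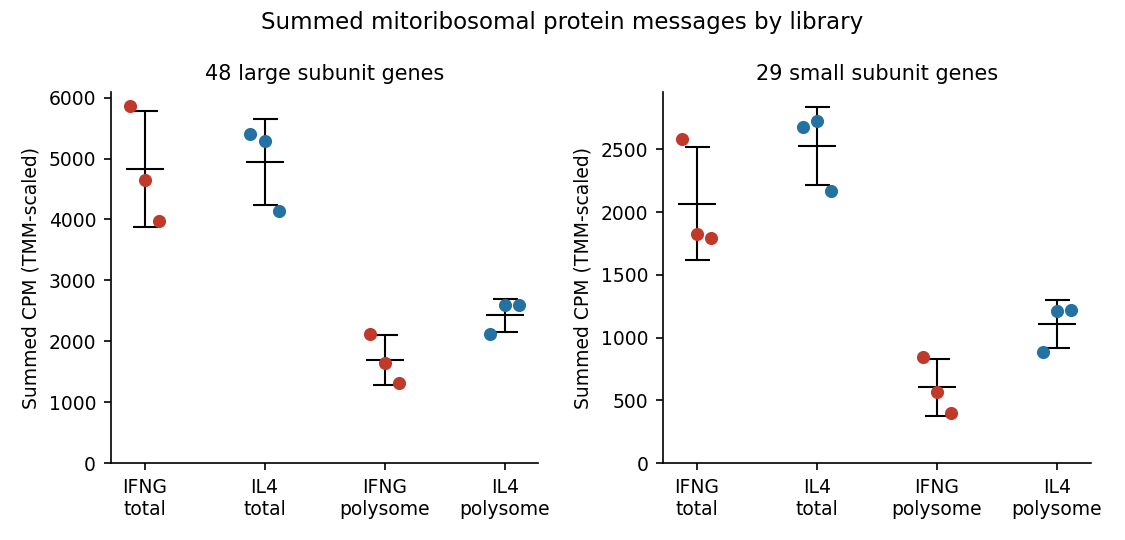
Summed level of the 48 large and 29 small subunit genes in each library, in CPM on TMM-scaled libraries, by cytokine and RNA fraction. Points are libraries, lines the mean and bars the SD of 3 libraries, and the polysome libraries of both cytokines lie below all total mRNA libraries, with IFNG polysome small subunit sums from 398 to 846 CPM.

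Polysome-associated mRNA was first compared with total mRNA within IFNG, to see which members were carried on heavy polysomes less than their level in the cell. With edgeR's quasi-likelihood test and Benjamini-Hochberg adjustment over all 10421 features (threshold 0.05), 50 of the 77 members were lower on polysomes and 0 were higher. Of all features, 17% were lower and 8.93% higher, so the members were called lower far more often than the table as a whole. The count was 30 of 48 for the large and 20 of 29 for the small subunit, and the median log2 fold change was -1.85 and -1.64, beside 0 over all tested features. In 51 members all 3 polysome libraries lay below all 3 total libraries (18.8% of all features). A fold change of this kind is relative to the average message in each fraction, since libraries were scaled to each other. For the comparisons of IFNG with IL4 further on, fewer cells of a type and less RNA per cell cannot be told apart in bulk samples.

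The same comparison within IL4, on separate libraries, found 44 members lower and 2 higher. Of all features, 15.9% were lower and 13.2% higher. The lower calls were 26 of 48 large and 18 of 29 small subunit genes, with medians of -1.36 and -1.43 beside 0.06 over all tested features. In 53 members the IL4 polysome libraries lay below the total libraries without overlap (25.7% of all features). The 2 comparisons called 42 members lower in both cytokines, 8 with IFNG alone, 2 with IL4 alone and 25 in neither. The share of all features lower in both was not counted, and can be no more than the 15.9% lower with IL4. A call in 1 cytokine alone does not show a difference between the cytokines. The test of that difference, given further on, called no member and no feature at all, so it does not settle whether the 8 and the 2 differ. Across the 77 members the log2 fold changes of the 2 cytokines had a Pearson correlation of 0.948 and a Spearman correlation of 0.939, a description across genes, which are not independent, from libraries prepared in the same way. Members with the lowest polysome association in one cytokine were thus among the lowest in the other. Without replicate 3 of both polysome groups, the libraries with the highest Lars2 shares, the lower counts were 39 with IFNG and 39 with IL4 (11.2 and 12.9% of all features). Leaving out IFNG polysome replicate 2 gave 33 lower with IFNG (9.08% of all features). For IL4 the lower count was 29 when total replicate 2 was dropped, 27 when polysome replicate 1 was and 28 when polysome replicate 3 was (9.93, 10.8 and 9.42% of all features). On unscaled library totals 29 and 27 members were lower with IFNG and IL4 (7.44 and 9.66% of all features), and the share of calls over all features that were higher moved from 34.5% to 57.7% with IFNG.

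**Figure D2:**
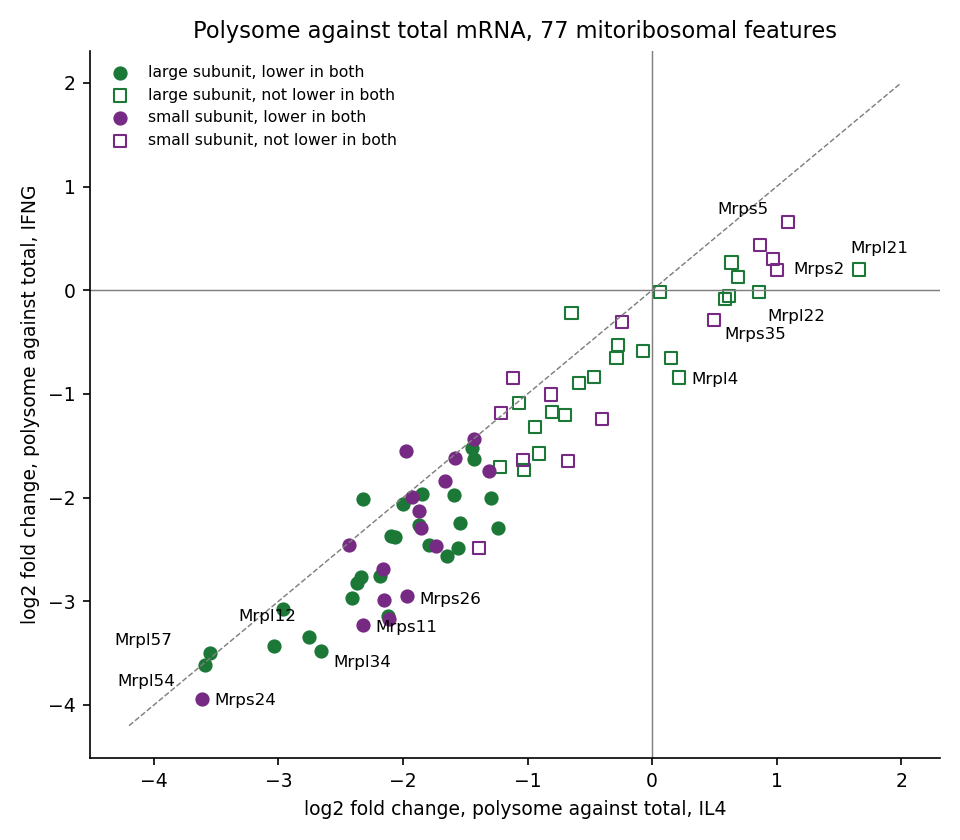
Log2 fold change of polysome-associated against total mRNA for the 77 members, IL4 on the horizontal and IFNG on the vertical axis. Filled circles are the 42 members lower in both cytokines by edgeR's test and open squares the others. Points below the dashed line of equality had a lower log2 fold change of polysome against total mRNA with IFNG than with IL4.

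Among large subunit genes, the lowest polysome association was that of Mrpl54 and Mrpl57, which code for proteins with no bacterial homologue. Mrpl54 (chromosome 10, 81264722 to 81266926) was at 353, 333 and 227 CPM in IFNG total, 40.7, 22.3 and 10.3 in IFNG polysome, 254, 237 and 175 in IL4 total and 23.0, 22.7 and 9.08 in IL4 polysome. The polysome libraries lay far below the total libraries for both cytokines, and the log2 fold change was -3.62 ± 0.51 with IFNG (SE; edgeR adjusted p = 0.000136) and -3.59 ± 0.52 with IL4 (adjusted p = 0.000126). Mrpl57 (chromosome 14, 57826228 to 57829087) was at 195, 152 and 127 CPM in IFNG total against 26.2, 8.20 and 6.28 on polysomes. With IL4 it was at 180, 201 and 117 CPM in total mRNA against 14.9, 16.3 and 11.3 on polysomes. Its log2 fold changes were close to those of Mrpl54, at -3.50 ± 0.51 with IFNG and -3.55 ± 0.51 with IL4 (SE; edgeR adjusted p = 0.000151 and 0.000126). Mrpl12, a stalk protein of the large subunit that has also been reported to bind the mitochondrial RNA polymerase, was lower in both cytokines as well. Mrpl12 (chromosome 11, 120484637 to 120488754) was at 487, 422 and 207 CPM in IFNG total, 71.4, 14.9 and 22.2 in IFNG polysome, 451, 432 and 273 in IL4 total and 54.5, 72.2 and 44.3 in IL4 polysome. Again no polysome library reached the level of a total library, and the log2 fold change was -3.35 ± 0.55 with IFNG and -2.76 ± 0.54 with IL4 (SE; edgeR adjusted p = 0.000389 and 0.0016).

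Other large subunit genes lower in both cytokines covered a range of roles. Mrpl34, a homologue of a small bacterial ribosomal protein, had log2 fold changes of -3.48 ± 0.52 and -2.66 ± 0.51 with IFNG and IL4 (SE; edgeR adjusted p = 0.00021 and 0.00143). Mrpl11, which forms the base of the stalk where translation factors bind, changed by -2.77 ± 0.51 and -2.34 ± 0.50 (adjusted p = 0.00097 and 0.00306). Mrpl20, a protein that binds early to rRNA in bacterial assembly, changed by -2.97 ± 0.52 and -2.41 ± 0.51 (adjusted p = 0.000669 and 0.00283). These 3 genes have bacterial homologues and Mrpl52, which has none, was lowered to a like extent, by -2.76 ± 0.46 and -2.18 ± 0.45 (adjusted p = 0.000454 and 0.00258). Mrpl30 changed by -3.07 ± 0.57 with IFNG and -2.96 ± 0.57 with IL4 (adjusted p = 0.000974 and 0.00143), and Mrpl28 by -3.14 ± 0.57 and -2.12 ± 0.55 (adjusted p = 0.000908 and 0.00807).

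Among small subunit genes, Mrps24 (chromosome 11, 5703982 to 5707701) had the lowest value of all 77. It was at 141, 128 and 71.1 CPM in IFNG total, 14.1, 6.52 and 0 in IFNG polysome, 184, 175 and 119 in IL4 total and 14.4, 15.2 and 9.08 in IL4 polysome. The groups did not overlap, 1 IFNG polysome library had no count, and the log2 fold change was -3.94 ± 0.68 with IFNG and -3.62 ± 0.67 with IL4 (SE; edgeR adjusted p = 0.000595 and 0.00118). Mrps11 (chromosome 7, 78783131 to 78792988), a homologue of a bacterial protein of the platform of the small subunit, was at 142, 102 and 64.1 CPM in IFNG total, 17.97, 9.67 and 4.06 in IFNG polysome, 160, 129 and 80.1 in IL4 total and 24.5, 29.7 and 19.3 in IL4 polysome. All polysome values were again below all total values, with log2 fold changes of -3.23 ± 0.51 and -2.32 ± 0.49 (SE; edgeR adjusted p = 0.000267 and 0.00269). Mrps12, whose bacterial homologue sits at the decoding centre and governs accuracy, changed by -3.17 ± 0.54 with IFNG and -2.11 ± 0.52 with IL4 (adjusted p = 0.000525 and 0.00648). Mrps7, which binds rRNA early in assembly of the head in bacteria, changed by -2.45 ± 0.52 and -2.43 ± 0.52 (adjusted p = 0.00227 and 0.00296).

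A smaller set of members was not lower on polysomes. Log2 fold changes were above 0 in both cytokines for 7 members and in at least 1 cytokine for 14. The median over all tested features was 0 with IFNG and 0.06 with IL4. The share of all features above 0 in both was not counted. Mrpl21 (chromosome 19, 3282997 to 3292837), a large subunit protein with a bacterial homologue, was at 36.7, 51.1 and 42.9 CPM in IL4 total and at 95.1, 173 and 145 on IL4 polysomes. Every IL4 polysome library was above every IL4 total library, a log2 fold change of 1.66 ± 0.43 (SE; edgeR adjusted p = 0.00831). With IFNG it was at 38.6, 44.7 and 61.2 CPM in total mRNA and 52.1, 84.9 and 28.4 on polysomes, which overlapped (0.20 ± 0.42, adjusted p = 0.751). Mrps2 (chromosome 2, 28465951 to 28471177), a small subunit protein with a bacterial homologue, was at 48.7, 39.4 and 42.1 CPM in IL4 total and 62.8, 85.3 and 113 on IL4 polysomes. It was the other member called higher, by 1.00 ± 0.37 (SE; edgeR adjusted p = 0.0476), a call lost under 18 of 23 other settings, whose adjusted p ran from 0.0208 to 0.225. With IFNG its value was 0.19 ± 0.37 (adjusted p = 0.73).

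Mrps5 (chromosome 2, 127587426 to 127603986), another small subunit protein with a bacterial homologue, missed the threshold with IL4. It was at 28.6, 25.9 and 21.9 CPM in IFNG total, 29.2, 58.9 and 32.5 in IFNG polysome, 39.4, 35.2 and 28.6 in IL4 total and 42.8, 80.0 and 98.0 in IL4 polysome. The polysome libraries lay above the total libraries in both cytokines, with log2 fold changes of 0.66 ± 0.41 and 1.09 ± 0.41 (SE; edgeR adjusted p = 0.249 and 0.0503). Mrpl39 had values of 0.13 ± 0.39 and 0.69 ± 0.40 (adjusted p = 0.831 and 0.186) and Mrpl22, which lines the exit tunnel for the new protein chain, -0.02 ± 0.41 and 0.86 ± 0.41 (adjusted p = 0.98 and 0.112). In the promoter stretches shown earlier, matches stand in Mrps11, Mrps26 and Mrpl39 and none in Mrps24 and Mrps5. The Mrpl39 stretch is 130 bases long and the others 120, and its match lies at -125 to -116, outside the shorter length. Whether the letters sort with this contrast was not tested.

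**Figure D3:**
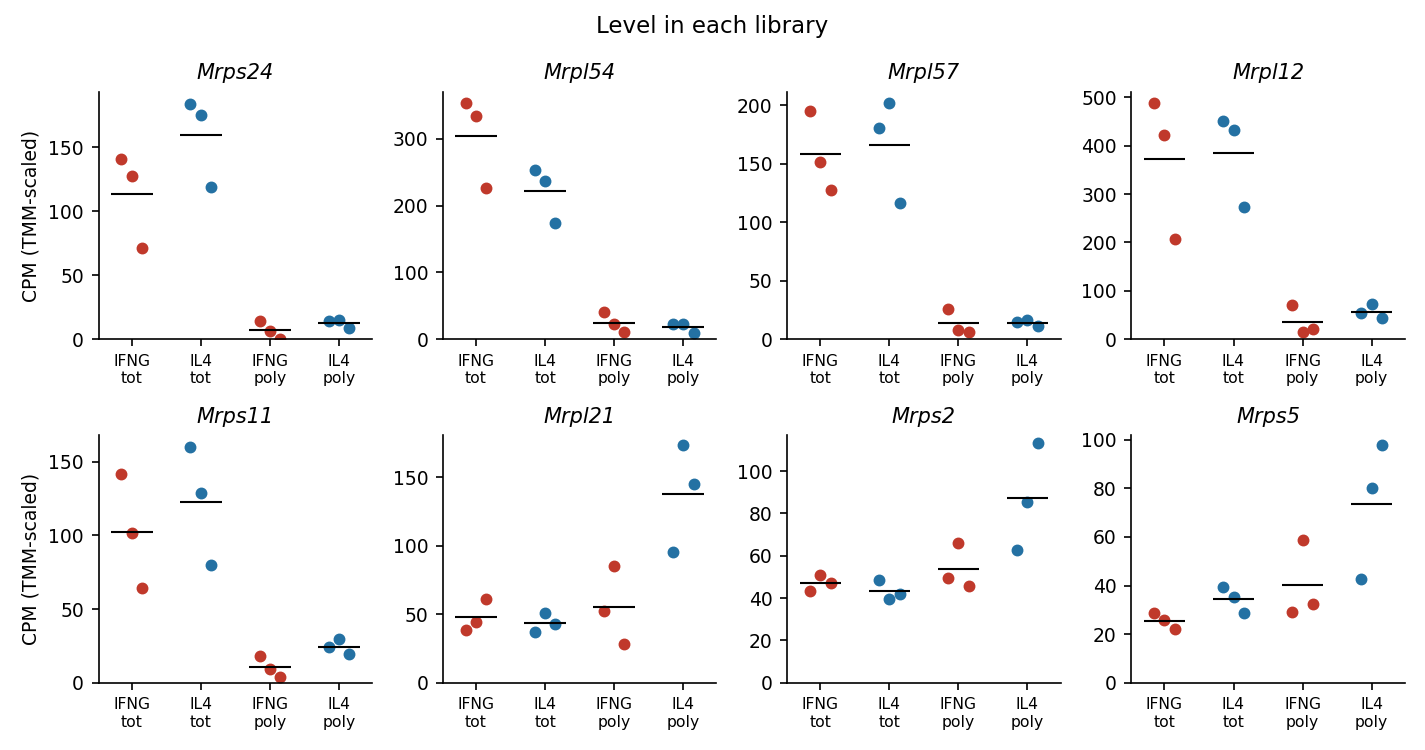
Level of 8 members in each library, in CPM on TMM-scaled libraries, with the mean of 3 libraries as a line; each panel has its own axis from 0. Mrps24, Mrpl54, Mrpl57, Mrpl12 and Mrps11 are lower on polysomes in both cytokines, whereas Mrpl21, Mrps2 and Mrps5 have higher means there, with Mrpl21 reaching 173 CPM in an IL4 polysome library.

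Several members need a word on what they are. The paralogues Mrps18a, Mrps18b and Mrps18c code for variants of 1 bacterial protein, of which the Mrps18a product is placed in the large subunit. Mrps18a changed by -2.99 ± 0.56 with IFNG and -2.15 ± 0.54 with IL4 and Mrps18b by -1.99 ± 0.51 and -1.93 ± 0.51, all called lower (SE; edgeR adjusted p = 0.00106, 0.00708, 0.00753 and 0.00915). Mrps18c changed by -1.64 ± 0.60 with IFNG (adjusted p = 0.0476) and had a value of -1.03 ± 0.60 with IL4 (adjusted p = 0.189). The Mrps30 product is likewise placed in the large subunit, and Mrps30 changed by -1.55 ± 0.50 and -1.98 ± 0.51 (adjusted p = 0.0263 and 0.00797). The product of Mrps36 has been reassigned to the alpha-ketoglutarate dehydrogenase complex, and Mrps36 changed by -1.74 ± 0.43 and -1.31 ± 0.42 (adjusted p = 0.00598 and 0.0245), so this gene of another complex was lower as well.

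Of the 8 joined names, 3 were lower in both cytokines: Ccdc142_Mrpl53, Cuedc1_Mrps23 and Mrpl24_Rrnad1. Ccdc142_Mrpl53 was at 152, 129 and 74.2 CPM in IFNG total, 18.1, 10.9 and 2.59 in IFNG polysome, 106, 92.4 and 65.8 in IL4 total and 11.6, 12.04 and 8.32 in IL4 polysome. Its log2 fold changes were -3.43 ± 0.53 and -3.04 ± 0.53 (SE; edgeR adjusted p = 0.000253 and 0.000647). Mrps6_Slc5a3, Mrpl49_Syvn1 and Gcfc2_Mrpl19 were called in neither, with values from -0.08 to 0.30 with IFNG and from 0.59 to 0.97 with IL4. Slc5a3, a myo-inositol transporter gene, and Syvn1, an endoplasmic reticulum ubiquitin ligase gene, share these counts, and how much each gene gave was not tested. Of the 69 single symbols, 46 were lower with IFNG and 40 with IL4 (17 and 15.9% of all features). Among them 39 were lower in both, a share that was not counted over all features.

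The members were also divided by bacterial homology, with Mrps30 counted as large, Mrps18a left with the small subunit as named and Mrps36 in no class. Of all features, 17% were lower with IFNG and 15.9% with IL4. Of small subunit genes with bacterial homologues, 14 of 18 were lower with IFNG and 12 of 18 with IL4, with medians of -2.06 and -1.79. Of the 9 that are specific to mitochondria, 4 were lower with each cytokine, with medians of -1.18 and -1.12. In the large subunit 20 of 30 conserved genes were lower with IFNG and 17 with IL4 (medians -1.99 and -1.36), and 11 and 10 of 19 mitochondria-specific genes (medians -1.55 and -1.45). Each class lay below the medians of all features, 0 and 0.06, and the differences between classes were not tested.

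In total mRNA, the comparison of IFNG with IL4 asked whether the cytokine set the level of mitoribosomal messages. No member passed the test in either direction, beside 7.08% of all features higher and 3.93% lower with IFNG. At an unadjusted p under 0.05, 1 member was higher and 2 were lower, beside 12.2% and 9.26% of all features. Fold changes were small, with medians of -0.17 for the large and -0.26 for the small subunit beside 0.04 over all features, and 61 of 77 were below 0 (48.3% of all features). The lowest adjusted p was that of the joined Mrps25_Nr2c2, at 59.1, 33.5 and 62.3 CPM with IFNG and 101, 129 and 133 with IL4. The groups did not overlap and the log2 fold change was -1.23 ± 0.41 (SE; edgeR adjusted p = 0.0575). With the replicate number as a block it was called lower, the only member so called there, as it was with RLE size factors and with DESeq2. At the other end, Mrpl52 was at 217, 210 and 229 CPM with IFNG and 103, 128 and 80.0 with IL4. The IFNG libraries were all higher, with a log2 fold change of 1.07 ± 0.43 (adjusted p = 0.13). Mrpl42, a mitochondria-specific protein, spread widely within groups, from 5.58 to 47.8 CPM with IFNG and from 27.0 to 83.3 with IL4 (log2 fold change -1.40 ± 0.63, adjusted p = 0.193).

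On polysomes, 6 members were lower with IFNG than with IL4 and 0 were higher. This is 7.79% of the members beside 6.58% of all features lower and 7.54% higher, so the count of calls was near the background. The medians were -0.56 for the large and -0.82 for the small subunit beside -0.06 over all features, and 69 of 77 fold changes were below 0 (52.7% of all features), among them all 29 of the small subunit. With 1 library left out the medians ran from -1.09 to -0.24 and from -1.13 to -0.49, the lowest without IFNG polysome replicate 1 and the highest without replicate 3 of that group. In 15 members (19.5%) the IFNG libraries lay below the IL4 libraries without overlap, beside 16% of all features. Mrps26 (chromosome 2, 130563757 to 130565394), a mitochondria-specific small subunit protein, was at 30.0, 10.7 and 1.48 CPM on IFNG polysomes and 54.5, 69.1 and 46.9 on IL4 polysomes. All IFNG libraries were lower, with a log2 fold change of -1.96 ± 0.59 (SE; edgeR adjusted p = 0.0287), and in total mRNA its values were 152, 119 and 67.2 CPM with IFNG and 240, 238 and 190 with IL4 (-0.98 ± 0.57, adjusted p = 0.357). The other 5 were Mrps6_Slc5a3 (-1.27 ± 0.40), Mrpl48 (-1.34 ± 0.43), Mrpl21 (-1.32 ± 0.43), Mrps35 (-1.34 ± 0.44) and Mrpl28 (-1.63 ± 0.54), with adjusted p from 0.038 to 0.0469.

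The count of 6 moved with single libraries. With the replicate number as a block, 11 members were lower (8.60% of all features). Without Lars2 1 was, Mrps26 (5.39% of all features). Leaving out IFNG total replicate 1 or 2, or IL4 total replicate 1 or 2, gave 1 or 2 (5.41 to 5.98% of all features). Without IFNG polysome replicate 2 there were 2 (3.33%). The count was 0 without IFNG polysome replicate 3 (3.82%) and without IL4 polysome replicate 2 or 3 (4.12 and 3.29%). It was also 0 without replicate 3 of both polysome groups (2.31%). In the main fit 6.58% of all features were lower, so calls over all features fell in these settings too. Without the first IFNG polysome library, which had the highest member levels and the lowest Lars2 share of its group, 23 were lower (9.03% of all features), of which only Mrpl28 and Mrps26 were among the 6. In the IFNG polysome libraries with summed member levels of 2965, 2214 and 1714 CPM, Lars2 took 1.78, 12.8 and 29.3% of counts, so the library with the least Lars2 had the highest sum. In the IL4 polysome libraries, at 3006, 3802 and 3806 CPM, Lars2 took 5.15, 11.98 and 18.1%, so there the library with the least Lars2 had the lowest sum. The part of Lars2 in the result beyond its removal from the counts was not tested. Of 6 dendritic cell markers, the 2 tested, Clec9a and Xcr1, were higher with IFNG. Clec9a was at 0 in all IL4 libraries, so it passed the filter only through IFNG libraries and its direction was fixed by that. The summed level of the 6 was 17.3 to 43.7 CPM on IFNG polysomes and 0.681 to 1.51 on IL4 polysomes. On polysomes 3 of 9 macrophage markers were also called higher with IFNG (7.54% of all features). No tested neutrophil, B cell or stromal marker was called there. The part of any of these markers was not tested.

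**Figure D4:**
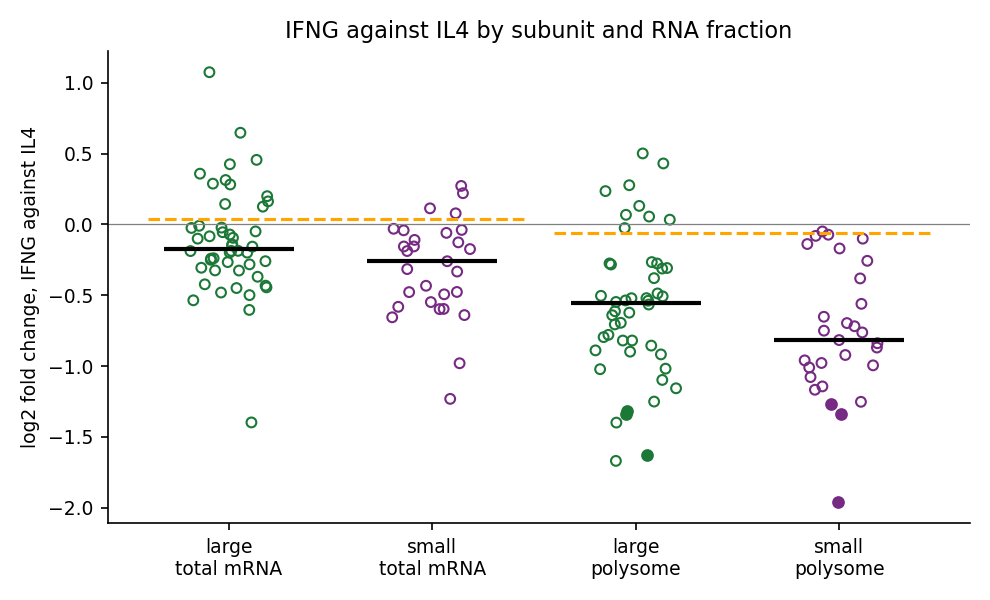
Log2 fold change of IFNG against IL4 for large and small subunit genes in total and polysome-associated mRNA. Filled points passed edgeR's test (none in total mRNA, 6 on polysomes), black lines are medians of the members (-0.17, -0.26, -0.56 and -0.82) and dashed lines the medians of all features.

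The interaction term tested whether polysome association itself differed between the cytokines. No member and no feature of the 10421 passed (0% in each direction), and at an unadjusted p under 0.05 there were 62 higher and 114 lower features (0.595% and 1.09%), with 1 member, Mrpl21, among the lower. DESeq2 called 0 features higher and 1 lower, limma voom called 0, and edgeR with no filter on low counts called 1 higher and 4 lower of 13590, with 0 members under any of these. The members' median was -0.44 for each subunit beside -0.10 over all features, with ranges of -0.93 to -0.15 (large) and -0.76 to -0.12 (small) when 1 library was left out, the ends again without IFNG polysome replicates 1 and 3. In all, 71 of 77 values were below 0 (57.3% of all features). Mrpl21 had the lowest value, -1.46 ± 0.60 (SE; unadjusted p = 0.0228, edgeR adjusted p = 1), followed in the large subunit by Mrpl4 (-1.06 ± 0.65), and in the small subunit Mrps34 (-1.10 ± 0.75) and Mrps12 (-1.06 ± 0.71) were lowest. At the other end, only single symbols with a mean of at least 10 CPM are named, the 2 highest per subunit. These were Mrps30 (0.43 ± 0.70), Mrpl50 (0.42 ± 0.79), Mrpl3 (0.31 ± 0.74) and Mrps27 (0.03 ± 0.63). A small subunit gene outside that choice reached 0.27. No difference between the cytokines in the polysome association of a single member was therefore detectable with 3 libraries a group.

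Other genes of mitochondrial gene expression did not all share this pattern. The counts that follow stand beside 17% of all features lower and 8.93% higher with IFNG, and 15.9% and 13.2% with IL4. Among 7 genes listed as mitoribosomal proteins with other names, 4 were lower on polysomes with each cytokine (medians -1.82 and -1.23). The list includes Oxa1l, an inner membrane insertase gene whose product is not itself a protein of the mitoribosome. Chchd1, a small subunit protein, changed by -3.29 and -3.12 (edgeR adjusted p = 0.0018 and 0.003), and Ict1, a peptidyl-tRNA hydrolase built into the large subunit, by -2.96 and -2.20 (adjusted p = 0.00093 and 0.0055). Dap3 and Ptcd3, small subunit proteins, were not called. Of 12 mitochondrial translation factors, 2 were lower with IFNG (16.7%, at the share of all features) and 3 with IL4 (medians -0.47 and -0.78): Tsfm, the elongation factor that recycles Tufm, changed by -2.23 and -2.31 (adjusted p = 0.0074 and 0.0069), whereas Tufm itself had values of 0.46 and 1.22 (adjusted p = 0.48 and 0.051). Of 23 assembly and rRNA modification genes, 5 and 7 were lower and 1 was higher with IL4, the joined Tfb1m_Tiam2. Rbfa, which matures the small subunit rRNA, changed by -2.51 and -1.81 (adjusted p = 0.0013 and 0.0086). None of 10 genes of mitochondrial transcription and message handling was called in either cytokine, with medians of 0.18 and -0.12, and with Polrmt, the mitochondrial RNA polymerase, at 0.71 and 0.16.

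Of 9 tested regulators of nuclear-encoded mitochondrial genes, 3 were higher and 1 was lower on polysomes with IFNG, and 1 was higher with IL4. Pprc1, a coactivator related to PGC-1, changed by 1.23 and 1.63 (edgeR adjusted p = 0.037 and 0.0092) and Gabpb2, a partner of GABPA, by 1.79 with IFNG (adjusted p = 0.011). In total mRNA and on polysomes, none of these 5 lists had a gene called between IFNG and IL4. A pair of larger sets of nuclear-encoded genes was lower on polysomes too: 70 of 80 cytosolic ribosomal protein genes were lower on polysomes with IFNG and 62 with IL4 (medians -2.30 and -1.69), and 59 and 40 of 77 respiratory chain and ATP synthase genes were (medians -1.98 and -1.44). The members' median with IFNG, -1.73, was the nearest to 0 of the 3. With IL4 their median, -1.43, was level with that of the respiratory chain set (-1.44), and more of the members were called lower (44 against 40, of 77 each). The differences between the sets were not tested.

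**Figure D5:**
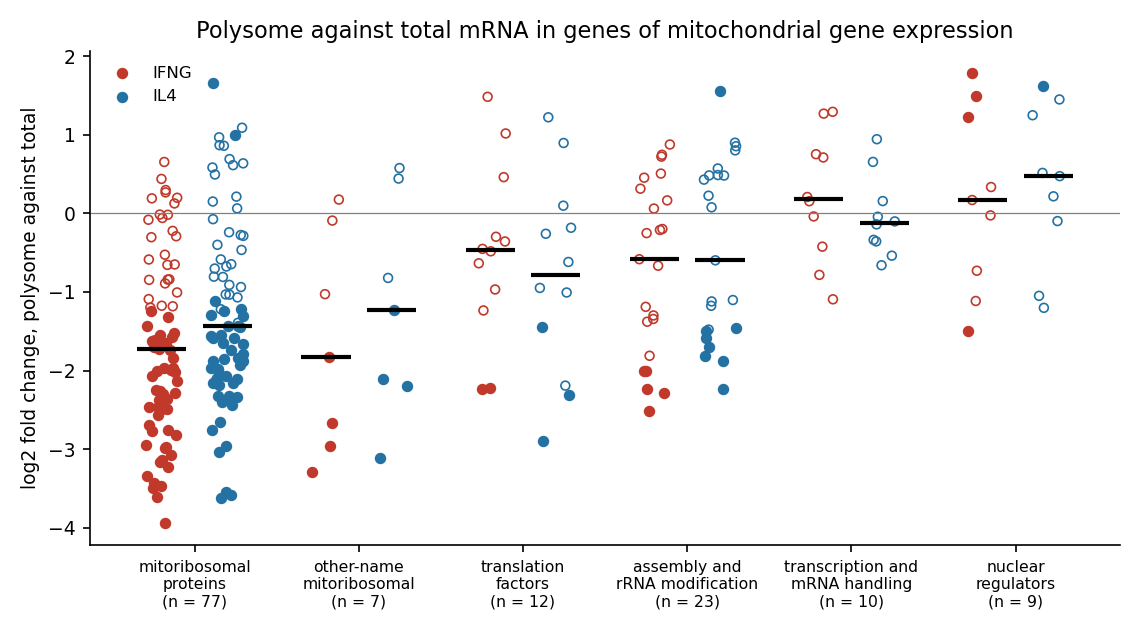
Log2 fold change of polysome-associated against total mRNA for the members and 5 other lists of genes of mitochondrial gene expression, IFNG in red and IL4 in blue. Filled points passed edgeR's test and black lines are medians, which lie at -1.73 and -1.43 for the members and at 0.18 and -0.12 for genes of transcription and message handling.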

How the data were processed

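Total and polysome-associated mRNA of BMDMs was sequenced with SmartSeq2, per the labels' protocols. The deposited files hold whole-number counts per gene symbol, and, per the file headers, a TMM-normalized log2 column that the authors computed, which entered no test. Per the submitters' processing notes the tools were HISAT2, HISAT and limma, with no versions, and the build mm10. Which program counted reads, whether by strand, and with which gene models is not given in the sources used here, so reads of overlapping and antisense genes cannot be told apart. Here counts were filtered with filterByExpr and TMM-scaled, and edgeR 4.0.16 in R 4.3.3 was fitted as 1 quasi-likelihood model (robust) of 4 groups to all 12 libraries, with Benjamini-Hochberg adjustment over 10421 features and a threshold of 0.05. The script was tested on simulated data. SE is the log2 fold change divided by the root of F. DESeq2 1.42.0, limma 3.58.1 (voom) and other alternatives were also run. Deeper libraries carry less counting error: 3 counts came to 0.136 CPM in the deepest and 1.17 CPM in the shallowest library.

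The members and lists were chosen with earlier results of these data known. Named members are those called, up to 12 per comparison by adjusted p, the 2 most positive and 2 most negative single symbols per subunit with a mean of at least 10 CPM, and genes set for their known roles. Levels per length and a comparison with protein length were not analysed here, since no table of coding or protein lengths was used. Replicate numbers were checked as pairs: same-numbered IFNG and IL4 libraries deviated together from their group means in total mRNA (correlations 0.395, 0.186 and 0.663) and on polysomes (0.223, 0.111 and 0.282). Different-numbered IFNG and IL4 libraries reached 0.318 in total mRNA and 0.134 on polysomes, above the same-numbered value of replicate 2 in each. Same-numbered polysome and total libraries of 1 cytokine did not all deviate together (-0.024 and 0.018 the lowest). Replicates differed far beyond sampling noise, and no library was a copy of another.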

Additional observations from a re-analysis of the deposited data

How the results depend on the processing

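The members' medians stayed below 0 under all 48 alternative values for each comparison of 2 groups and under all 46 for the interaction, and no named call reversed. Of the 26 named calls of polysome against total mRNA, 25 held under all 23 alternatives, the exception being Mrps2 with IL4. Most of these were named for the lowest adjusted p in the main fit, so their holding does not speak for the other members called. The 6 named calls of IFNG against IL4 on polysomes were each lost under some of the 23, from 7 (Mrps26) to 17 (Mrps35). In IFNG against IL4 in total mRNA, where the count was 0, 1 member was lower with RLE size factors, unscaled totals, no filter on low counts, a mean of at least 10 CPM, DESeq2, thinning to the smallest library and replicate 3 of both polysome groups left out (a setting added after seeing the data), and 2 with limma voom. Over these settings 3.94 to 5.63% of all features were lower. Leaving out 1 library gave 0 to 2 (2.24 to 4.51% of all features). On polysomes, where the count was 6, 2 members were lower with unscaled totals, 1 with only the groups compared and 3 with thinning (5.36, 6.02 and 6.63% of all features). The count was 1 without Lars2 and 0 with replicate 3 of both polysome groups left out (5.39 and 2.31%). With 1 library left out it ran from 0 to 23 (3.29 to 9.03%). Polysome against total mRNA with unscaled totals gave 29 lower with IFNG and 27 with IL4 (7.44 and 9.66% of all features). With 1 library left out the counts were 33 to 52 and 27 to 47 (8.85 to 18.9% and 9.42 to 19.4% of all features). The count higher on polysomes with IL4 was 1 with RLE size factors, no filter, a mean of at least 10 CPM, limma voom, no Lars2 and replicate 3 of both polysome groups left out, 4 with only the groups compared, and 1 to 3 with 1 library left out. Over these settings 4.88 to 17.9% of all features were higher on polysomes with IL4. The cause of these moves was not tested.

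Medians in IFNG against IL4 in total mRNA moved to -0.51 for the large and -0.60 for the small subunit with unscaled totals, under which the median of all features moved by -0.34, and the small subunit's ranged from -0.59 to -0.20 with 1 library left out. On that scale the median of all features moved by 0.31 in polysome against total mRNA with IFNG, and the higher share of calls over all features went from 64.3% to 48.5% in IFNG against IL4 in total mRNA. With IL4, the polysome medians were -1.51 and -1.59 at a mean of at least 10 CPM and -1.56 and -1.63 without Lars2, where the higher share of calls went from 45.3% to 32%, and the small subunit's ranged from -1.64 to -1.35 with 1 library left out. With 1 library left out the interaction medians ranged from -0.93 to -0.15 and from -0.76 to -0.12, and the small subunit's reached -0.06 over all alternatives. The summed large subunit level of IL4 polysomes was 2715 CPM on unscaled totals, and YY1 letters stood in 1 member before the start.

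With the replicate block (numbers that pair IFNG with IL4 libraries), 1 member, Mrps25_Nr2c2, was lower with IFNG in total mRNA and 11 on polysomes, and no interaction was called. The labels do not tie same-numbered polysome and total libraries to 1 cell population. In polysome against total mRNA the block gave 51 members lower with IFNG (18.7% of all features). With IL4 it gave 45 lower and 3 higher (18.4 and 15.7% of all features), Mrps5 being the added higher one. The planned comparison with protein length and its alternatives were not run. Polysome libraries hold fewer counts, which limits what can be seen of the lowest members there.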
